A study of Mus musculus with 3 samples.

Results

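Among the cells of 3 cryopreserved lots of mouse fetal ovarian somatic cells (FOSCs), 281 barcodes were germ cells with little or no Stra8 message, and they are called Stra8-low germ cells here. A barcode was kept when it had 200 to 9000 genes and at most 10% mitochondrial UMIs (unique molecular identifiers, each standing for 1 captured RNA molecule), which left 28971 of 29103 barcodes. A kept barcode was a germ cell when it held at least 5 UMIs of Dazl and at least 1 UMI of Ddx4, and 1340 barcodes did. The Stra8-low germ cells were those of the 1340 with under 2 UMIs of Stra8 per 10000 UMIs of the barcode, and the other 1059 are the Stra8-high germ cells. The cells were thus chosen by their measured levels of Dazl, Ddx4 and Stra8, which are given as description with no test.

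All 3 lots (26, 29 and 30) come from CD1 mice (Charles River) with no transgene or treatment named in the labels. As samples of a single condition, the lots are the replicates (n = 3). To make a lot, ovaries of E12.5 embryos from 10 pregnant mice were freed of the mesonephros, pooled as single cells, passed over magnetic beads (MACS) to take out germ cells by the surface antigens SSEA1 and CD31, and frozen. The 10X Genomics libraries were made on thaw, so every germ cell described here had escaped the MACS step. No label ties a cell to an embryo, and single cells are not replicates. Lot 29 was the shallowest, with 87494974 UMIs against 126680758 in lot 26 and 141920060 in lot 30. Pairs of lots shared 19 to 30 kept barcode sequences, none of which was a Stra8-low germ cell in both lots.

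Primordial germ cells that have settled in the fetal gonad divide by mitosis and still transcribe pluripotency genes such as Pou5f1, Sox2 and Nanog. In the fetal ovary, retinoic acid and BMP signals come before the expression of Stra8, a regulator that acts with MEIOSIN to switch on the genes of meiotic prophase, and the pluripotency genes are then shut off as the cells become oocytes. This change passes through the ovary over a few days, so germ cells at different steps lie side by side.

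The Stra8-low germ cells numbered 139 in lot 26, 77 in lot 29 and 65 in lot 30. They made up 1.43% of the kept barcodes in lot 26 (95% interval 1.21 to 1.69 by the exact Clopper-Pearson method), 0.90% in lot 29 (0.711 to 1.12) and 0.607% in lot 30 (0.469 to 0.773), a mean of 0.980% ± 0.418 (SD, n = 3 lots). The intervals cover counting error only, and the share of each of the 3 lots lay outside the intervals of the others. Of the germ cells alone, the share was 20.7% in lot 26 (17.7 to 23.9), 25.4% in lot 29 (20.6 to 30.7) and 17.8% in lot 30 (14 to 22.1), a mean of 21.3% ± 3.84 (SD, n = 3). Lot 26 thus held the most Stra8-low cells per kept barcode, and lot 29 the most per germ cell. Lot 26 also held more germ cells of any kind, at 6.92% of kept barcodes against 3.54% in lot 29 and 3.41% in lot 30. The MACS step and the minimum of Dazl UMIs can both set these shares.

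The threshold cut through a continuous range of Stra8 levels. The highest Stra8 rate among the Stra8-low cells was 2.00, 1.98 and 1.85 UMIs per 10000 in lots 26, 29 and 30, and the lowest among the Stra8-high cells was 2.02, 2.01 and 2.09. Between 1 and 2 per 10000 lay 49, 23 and 21 cells, and between 2 and 3 lay 46, 36 and 23. The cells just inside and just outside were therefore alike in Stra8, and the class is a range of levels. No Stra8 UMI at all was counted in 46, 30 and 24 of the cells. The median rate was 0.585, 0.583 and 0.428 per 10000 in the Stra8-low cells and 8.73, 7.23 and 7.59 in the Stra8-high cells.

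The germ cell label was checked on Dppa5a and Dppa3, markers of primordial germ cells that the rule did not use. In what follows, a level is in CPM, the UMIs of a gene per 1000000 UMIs after the cells of a class were summed within a lot. Dppa5a read 1279, 1473 and 1029 CPM in the Stra8-low cells of lots 26, 29 and 30, and 4.81, 2.47 and 2.09 CPM in the somatic barcodes, the 25844 kept barcodes with no UMI of Dazl or Ddx4. Dppa3 read 890, 1145 and 808 CPM against 5.23, 2.67 and 2.64 CPM. After each cell was thinned to 8000 UMIs, 97.8%, 100% and 98.4% of the Stra8-low cells had a UMI of Dppa5a, and 98.6%, 100% and 100% had 1 of Dppa3 (unthinned, all had both). In the somatic barcodes, which should lack both, 1.49% to 3.66% had a Dppa5a UMI at the same thinning. Nearly every Stra8-low barcode thus carried both markers, far above the background of the libraries. The Stra8-low barcodes were deep, with a median of 24766, 22632 and 25063 UMIs, against 22257, 17876 and 24262 in the Stra8-high cells and 8753 to 11307 in the somatic barcodes. Their median mitochondrial share was 1.37%, 0.762% and 1.5%, against 1.03%, 0.612% and 0.981% in the Stra8-high cells.

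The main comparison asked how germ cells differ by Stra8 within the same lots. UMI sums of the Stra8-low and Stra8-high cells were compared with edgeR's quasi-likelihood test with the lot as a block, and a gene was called at a Benjamini-Hochberg adjusted p under 0.05 over the 11479 genes tested. In this test 2114 genes were higher in the Stra8-low cells (18.4% of those tested) and 2205 were lower (19.2%), and the median log2 difference over all genes was 0.00. These counts depend on the test: without the lot as a block 863 genes were higher and 1045 lower, and DESeq2 gave 1003 and 828, all of them among the calls above. Leaving out lot 26, the lot with the most Stra8-low cells, gave 1407 and 1413. Of the genes named in what follows, 17 kept their direction but lost their call without the lot as a block: Aldh1a2, Axin2, Crabp1, Dnmt1, Dppa3, Fgf8, Fgfr1, Fgfr3, Fst, Hes1, Id3, Jun, Kitl, Rb1, Tdrd12, Top2a and Wnt4. Genes of pluripotency and of the primordial germ cell state were higher, genes of meiosis were lower, and mitotic genes were higher by less. Against the percentages just given, 20 of 22 tested pluripotency genes and 18 of 24 primordial germ cell genes were higher, and 32 of 36 meiotic genes were lower. The plot of gene levels by lot shows examples of each.

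**Figure D1:**
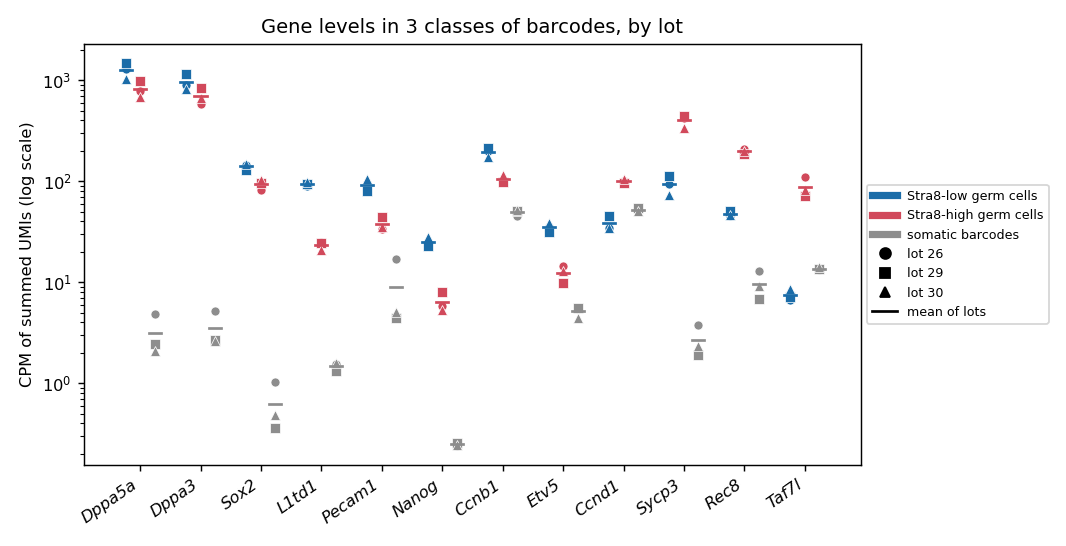
Level of 12 genes in CPM of summed UMIs (log axis) in Stra8-low germ cells (blue), Stra8-high germ cells (red) and somatic barcodes (grey), with a symbol for each of lots 26, 29 and 30 and a bar at the mean of the lots. The blue points of Nanog, at 23.0 to 28.2 CPM, lie above its red points, at 5.35 to 7.97 CPM, and the blue points of Taf7l, at 6.72 to 8.52 CPM, lie below its red and its grey points.

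Nanog, a transcription factor of the naive pluripotent state, had the largest difference of the pluripotency list. It read 23.8, 23.0 and 28.2 CPM in the Stra8-low cells of lots 26, 29 and 30 and 5.76, 7.97 and 5.35 CPM in the Stra8-high cells, with no overlap. The log2 difference was 2.05 (SE 0.18, adjusted p = 3.6e-10), a fold of 4.13. At a common depth of 8000 UMIs, a Nanog UMI was found in 13.8%, 18.4% and 25% of the Stra8-low cells, in 3.42%, 6.76% and 6.06% of the Stra8-high cells and in 0.141% to 0.190% of the somatic barcodes. The unthinned share in the Stra8-low cells was 39.6%, 33.8% and 44.6%, so most of these cells showed no Nanog UMI even at full depth. Nanog lies on chromosome 6 at 122707489 to 122714633 on the plus strand (GRCm38).

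L1td1, an RNA-binding protein of pluripotent cells, read 90.0, 93.0 and 97.5 CPM in the Stra8-low cells and 25.2, 24.4 and 20.8 CPM in the Stra8-high cells. Its log2 difference was 2.00 (SE 0.10, adjusted p = 2.6e-15), and its Stra8-low values varied little between lots. Among genes of the list at 20 CPM or more, Tcl1, a coactivator of Akt, and Dppa2, which primes bivalent promoters, followed with log2 differences of 1.39 (SE 0.12) and 1.34 (SE 0.13). The core factors moved by less. Pou5f1 (also called Oct4) read 25.1, 25.2 and 31.4 CPM against 15, 14.8 and 19.12 CPM, a log2 difference of 0.76 (SE 0.13, adjusted p = 4.2e-05). Sox2, its partner on DNA, read 146, 130 and 148 CPM against 82.4, 95.5 and 103 CPM, a log2 difference of 0.65 (SE 0.08, adjusted p = 6.4e-08). Both were thus present in both classes, and their CPM was higher in every lot of the Stra8-low cells. A Pou5f1 UMI was found in 46.8%, 42.9% and 44.6% of the Stra8-low and 29.3%, 23.5% and 37.3% of the Stra8-high cells. At 8000 UMIs a cell these shares were 18.1% against 10.5% in lot 26 and 11.8% against 10.8% in lot 29, and in lot 30 the Stra8-low share (exact 95% interval 5.55 to 23.2) was below the 14.8% of the Stra8-high cells, so no order is read from them. The count over the list was 17 higher of those tested without the lot as a block, and 15 in thinned cells. Esrrb (log2 difference 1.47, SE 0.19), Zfp42 (1.21, SE 0.10), Gdf3 (1.33, SE 0.12) and Utf1 (0.87, SE 0.06) were also higher. None of the list was lower.

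The promoter of Nanog holds the known composite site at which SOX2 and OCT4 bind side by side, and it is shown because its gene led the list. The site was searched on both strands as CATTGT followed, after 1 base of any kind, by ATGC, in the 300 bases from 250 before to 50 after each RefSeq start (GRCm38.p6). It was found for 18 of 27025 genes with a window (0.0666%) and, of the 17 pluripotency genes with a window, for Nanog alone. The capitals mark the site, here on the opposite strand, in 30 bases of the plus strand.
Nanog, chr6:122707408-122707437: gcttcttttGCATTACAATGtccatggtgg

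Tfap2c, a transcription factor needed for primordial germ cells to form, led the primordial germ cell list. It read 57.4, 70.6 and 58.6 CPM in the Stra8-low cells and 19.6, 22.2 and 19.3 CPM in the Stra8-high cells, a log2 difference of 1.62 (SE 0.11, adjusted p = 9.3e-13). Nanos3, an RNA-binding protein that protects migrating germ cells from death, read 32.3, 36.1 and 33.6 CPM against 13, 11.3 and 16.7 CPM (log2 difference 1.33, SE 0.14, adjusted p = 1.0e-08). The 2 repressors that specify the lineage were higher as well. Prdm1 (Blimp1) read 35.2, 20.8 and 30.4 CPM against 13.1, 14.2 and 16.3 CPM (log2 difference 1.12, SE 0.15), and Prdm14 had a log2 difference of 1.33 (SE 0.21). Dnd1, which works with NANOS proteins on germ cell RNA, differed by 0.95 on the log2 scale (SE 0.07). Dppa5a and Dppa3, the markers used above, were also higher in all 3 lots, by 0.66 (SE 0.04) and 0.49 (SE 0.05) on the log2 scale.

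Pecam1 encodes CD31, one of the antigens of the MACS step. It read 93.1, 79.9 and 105 CPM in the Stra8-low cells and 33.7, 44.5 and 34.8 CPM in the Stra8-high cells, a log2 difference of 1.37 (SE 0.10, adjusted p = 2.5e-11). The cells with little Stra8 thus had escaped depletion while holding 2.59-fold more message for a depletion antigen. Fut4, an enzyme that makes the SSEA1 epitope, read 5.43, 6.02 and 5.86 CPM against 7.63, 4.87 and 6.12 CPM, and the values overlapped (log2 difference -0.17, SE 0.27, adjusted p = 0.66). Nothing on SSEA1 is read from Fut4 alone at this low level. Message and surface antigen can differ, and the sort was not measured here.

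The largest folds among the genes with at least 20 CPM and the same direction in 3 of 3 lots were those of 4 globin genes, and they rest on 4 barcodes. Hba-x, Hba-a1, Hbb-bt and Hbb-bs had log2 differences of 6.51, 3.46, 3.01 and 2.90, but 97.2% of the red blood cell marker UMIs of the Stra8-low cells of lot 26, and 97.6% of those of lot 29, came from 3 cells in each lot. With the 4 barcodes left out that had over 0.1% of UMIs from these markers (3 in lot 26 and 1 in lot 29), the values were 0.31, 0.02, 0.41 and 0.21 (adjusted p = 0.45, 0.93, 0.27 and 0.20 in edgeR). Without these barcodes none of the 4 passed. The other genes of the 10 largest were Nanog, L1td1, Tfap2c, 1700019D03Rik (2.13, SE 0.18), the phospholipase Plcd1 (1.58, SE 0.11) and Rgcc, a regulator of the cell cycle (1.55, SE 0.16).

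The meiotic list was lower. Of its 36 tested genes 32 were lower and none was higher, with a median log2 difference of -1.47. The summed level of the list was 1971, 2273 and 1952 CPM in the Stra8-low cells and 4303, 4367 and 3848 CPM in the Stra8-high cells, against 359 to 384 CPM in the somatic barcodes. The sum is over all 37 genes of the list, and none was left out for having chosen the cells. Any part of Stra8 in it is therefore set by the rule, so no order of the classes is read from the sum. Stra8 had no test, and the count of 32 lower genes does not hold it. Stra8, which chose the cells, read 72.4, 72.2 and 62.3 CPM against 964, 809 and 843 CPM. Its partner Meiosin (listed as Gm4969) was close to absent, with 7 UMIs over all Stra8-low cells against 291 in the Stra8-high cells. The level of Gm4969 was 0.517, 1.64 and 1.07 CPM against 13.1, 8.86 and 9.69 CPM (log2 difference -3.54, SE 0.38, adjusted p = 1.8e-08).

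Genes of the chromosome axis and the synaptonemal complex, the protein zipper between paired chromosomes, were lower in every lot. Sycp3, an axis component, read 93.1, 113 and 72.4 CPM in the Stra8-low cells and 419, 443 and 339 CPM in the Stra8-high cells, a log2 difference of -2.10 (SE 0.06, adjusted p = 2.1e-20). Rec8, the meiotic cohesin subunit, read 44.7, 50.9 and 45.8 CPM against 208, 185 and 200 CPM, a log2 difference of -2.07 (SE 0.08, adjusted p = 8.1e-18). Sycp1, which spans the zipper, read 26.6, 38.3 and 20.8 CPM against 162, 146 and 137 CPM (log2 difference -2.40, SE 0.11). At a common depth, 46.4%, 56.6% and 46.9% of the Stra8-low cells had a Sycp3 UMI, against 85.6%, 87.4% and 81.1% of the Stra8-high cells and 1.31% to 3.03% of the somatic barcodes. Sycp3 message was thus lower and not absent where Stra8 was low (unthinned, 76.3%, 84.4% and 84.6% of the Stra8-low cells had a UMI). Smc1b, another cohesin subunit of meiosis, kept 230, 346 and 242 CPM against 736, 892 and 603 CPM (log2 difference -1.44, SE 0.05).

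Other genes of the list fell further. Terb1 (listed as Ccdc79), which ties telomeres to the nuclear envelope, had a log2 difference of -3.23 (SE 0.21), and Figla, a transcription factor of oocytes, -3.13 (SE 0.21). Meioc (listed as Gm1564), which stabilises the meiotic program, read 19.7, 21.3 and 19.2 CPM against 148, 151 and 156 CPM (log2 difference -2.89, SE 0.10, adjusted p = 3.4e-19). Tex12, of the central element of the zipper, had -2.5 (SE 0.12). Zglp1, a GATA-like factor downstream of BMP in oocyte fate, was the exception among the regulators. It read 103, 120 and 90.5 CPM against 99.4, 122 and 111 CPM, and the log2 difference was -0.04 (SE 0.08, adjusted p = 0.70). Its values overlapped, and the level in somatic barcodes was 0.679 to 1.06 CPM. Smc3, a cohesin subunit that mitosis also uses, differed by -0.04 (SE 0.04, adjusted p = 0.54), and Spo11, which makes the breaks that start recombination, by -0.65 (SE 0.29, adjusted p = 0.083) at 3.28 to 7.19 CPM.

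Of the 22 tested genes for germline RNA binding and genome defence, 16 were lower and 2 higher (0 higher without the lot as a block), with a median of -0.70. Taf7l, an X-linked germ cell form of a subunit of the general transcription factor TFIID, had the lowest value of the 10 that fell most. It read 6.72, 7.11 and 8.52 CPM in the Stra8-low cells and 110, 70.9 and 82.0 CPM in the Stra8-high cells, a log2 difference of -3.64 (SE 0.15, adjusted p = 2.2e-17). In the somatic barcodes Taf7l read 13.1, 13.5 and 14.2 CPM, above the Stra8-low cells (log2 difference -0.83, SE 0.21, adjusted p = 5.6e-04). A Taf7l UMI was found in 2.17%, 1.32% and 4.69% of thinned Stra8-low cells, which is near the 3.00% to 3.85% of somatic barcodes (unthinned, 13% to 18.5%), and in 33.3% to 42.4% of Stra8-high cells. Tex101, a surface glycoprotein of germ cells, differed by -2.55 (SE 0.08), Gtsf1, a factor of piRNA silencing, by -1.74 (SE 0.17), and Slc25a31, the germ cell ADP/ATP carrier, by -1.59 (SE 0.07). Tdrd12, of the piRNA pathway, was higher, at 0.45 (SE 0.11, adjusted p = 0.0019).

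The other genes of the 10 largest decreases were Spdya, which activates CDK2 at meiotic telomeres (-2.77, SE 0.19), BC049730 (-2.74, SE 0.27) and Xlr4b (-2.43, SE 0.15). Xlr4b has near-identical neighbours on the X chromosome, and its count is uncertain for that reason. The 10 genes were lower in 3 of 3 lots. Rad21l, a meiotic cohesin subunit, had no UMI in the Stra8-low cells and 103 in the Stra8-high cells, and Mei1, needed for meiotic breaks, had 1 and 168.

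Sequence upstream of genes that moved together is shown for those that carry CACGTG, the palindromic E-box that basic helix-loop-helix factors can bind. In the RefSeq windows defined above, CACGTG was found for 8.09% of all genes and 12.1% of the 8797 tested genes with a window. It was found for 15.6% of the genes called higher and 10.6% of those called lower, so it did not mark the lower genes as a whole. Of the genome defence list 11 of 21 genes with a window held it (52.4%), and of the meiotic list 8 of 28 (28.6%). None of the 21 mitotic genes with a window held it. The E2F-type motif TTCCCGC was found for 5.29% of all genes, 10.6% of those tested and 10 of 28 meiotic genes (35.7%). These matches are descriptions of letters in a window. For 7 of the genes called lower, 30 bases around the E-box follow on the strand of the gene (GRCm38.p6), with the E-box in capitals.
Taf7l, minus strand, chrX:134476522-134476551: accctcttatacCACGTGacagaactcgcc
Sycp3, plus strand, chr10:88459511-88459540: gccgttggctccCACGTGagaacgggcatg
Sycp1, minus strand, chr3:102936177-102936206: tagagaacccggCACGTGggaagggaaatc
Tex12, minus strand, chr9:50561344-50561373: ccgcgagactgtCACGTGgctcgcgcgctg
Hormad1, plus strand, chr3:95559608-95559637: caaagggtgcgcCACGTGccagtgacagtt
Slc25a31, plus strand, chr3:40708766-40708795: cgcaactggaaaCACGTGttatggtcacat
Stk31, plus strand, chr6:49395472-49395501: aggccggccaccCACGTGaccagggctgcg

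Hormad1, an axis protein, and Stk31, a germ cell kinase, were lower by smaller amounts than the others shown, with log2 differences of -1.17 (SE 0.08) and -1.28 (SE 0.06). Zglp1, which did not differ detectably, also held the E-box in its window. The motif was therefore present at genes that differed and at a gene with overlapping values.

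Levels were also followed over 5 bins of Stra8 in the 1340 germ cells, which shows how the genes change within the Stra8-low class and not only across the threshold. The bins were set by Stra8, and the values are a description with no test. Cells without a Stra8 UMI (46, 30 and 24 in the lots) had a mean Nanog level of 32.3 CPM, those above 0 and under 2 per 10000 had 20.9, and the next bins (2 to 5, 5 to 10, and 10 or more) had 11.2, 6.21 and 1.60 CPM. L1td1 went from 150 to 63.7 CPM within the Stra8-low class and to 14.1 CPM in the top bin. Etv5, described below, went from 52.5 to 26.1 and then to 9.67 CPM. These genes thus had their highest mean in the cells with no Stra8 UMI. Sycp3 ran the other way, from 72.6 and 102 CPM in the Stra8-low bins to 663 CPM in the top bin, and Taf7l from 2.92 and 9.76 to 172 CPM. Zglp1 stayed between 91.1 and 117 CPM in every bin.

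**Figure D2:**
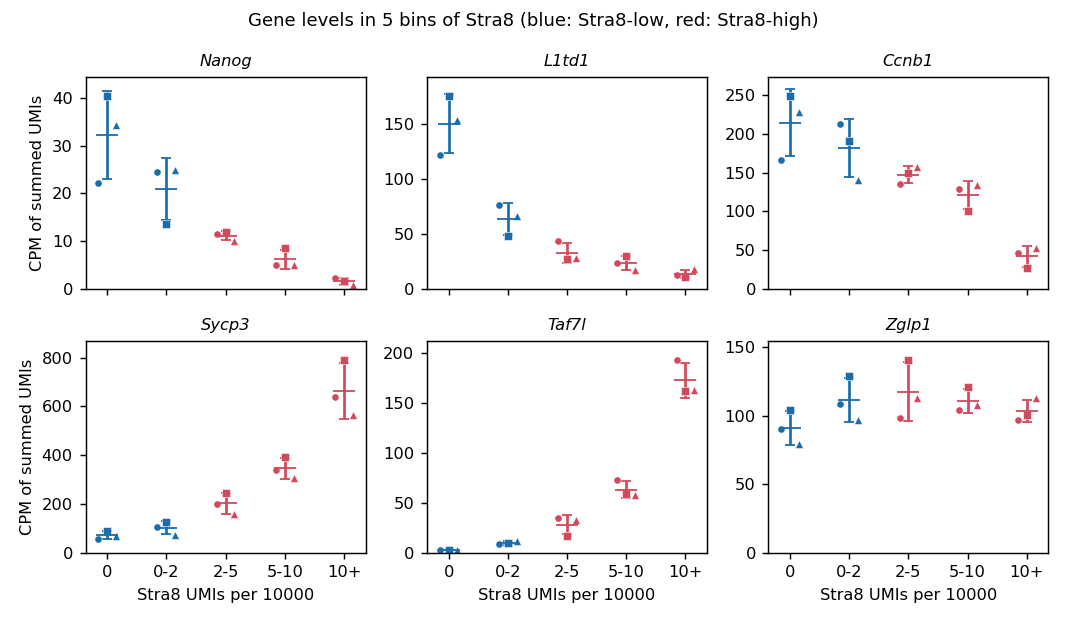
Level of 6 genes in CPM of summed UMIs over 5 bins of Stra8 (UMIs per 10000 of the barcode), with a symbol per lot (circle 26, square 29, triangle 30), a bar at the mean and error bars of 1 SD over the 3 lots, in blue for the Stra8-low and red for the Stra8-high bins. Nanog and L1td1 are highest where no Stra8 UMI was counted, Sycp3 and Taf7l rise to 663 and 172 CPM in the top bin, and Zglp1 has no such slope.

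Cell cycle genes separated the classes by less than the meiotic or pluripotency genes. Of 25 genes of mitosis and the G2/M phase, 18 were higher in the Stra8-low cells and 1 was lower, with a median log2 difference of 0.40. Ccnb1, the cyclin that drives entry into mitosis, read 199, 211 and 172 CPM in the Stra8-low cells and 98.3, 98.8 and 116 CPM in the Stra8-high cells, a log2 difference of 0.93 (SE 0.08, adjusted p = 1.0e-10). Ube2c, which with the anaphase-promoting complex destroys cyclins, differed by 0.68 (SE 0.06), Aurka, the kinase of spindle poles, by 0.66 (SE 0.10), and Aurkb, the kinase of centromeres, by 0.60 (SE 0.12). The proliferation marker Mki67 differed by 0.45 (SE 0.06). Top2a, which untangles DNA before division, was close to even, at 0.13 (SE 0.05, adjusted p = 0.039), was higher in 2 of 3 lots and was not called without lot 29 or lot 30 (adjusted p = 0.31 and 0.25). Bub1, a spindle checkpoint kinase that meiosis also uses, was the gene of the list that was lower, at a mean of 122 against 172 CPM over the lots (log2 difference -0.45, SE 0.07).

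A count per cell gave the same order of the classes. In cells thinned to 8000 UMIs, the median number of UMIs from the 25 G2/M genes was 29.5, 34 and 29.5 in the Stra8-low cells of lots 26, 29 and 30, and 22, 24 and 23 in the Stra8-high cells. The somatic barcodes had a median of 2 in each lot. The 25 genes of DNA replication and S phase gave 16, 17 and 18 UMIs in the Stra8-low cells, 16 in each lot of the Stra8-high cells and 8 to 10 in the somatic barcodes. Most germ cells of both classes thus carried cell cycle message, and the classes differed in the G2/M genes. No phase was called per cell.

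**Figure D3:**
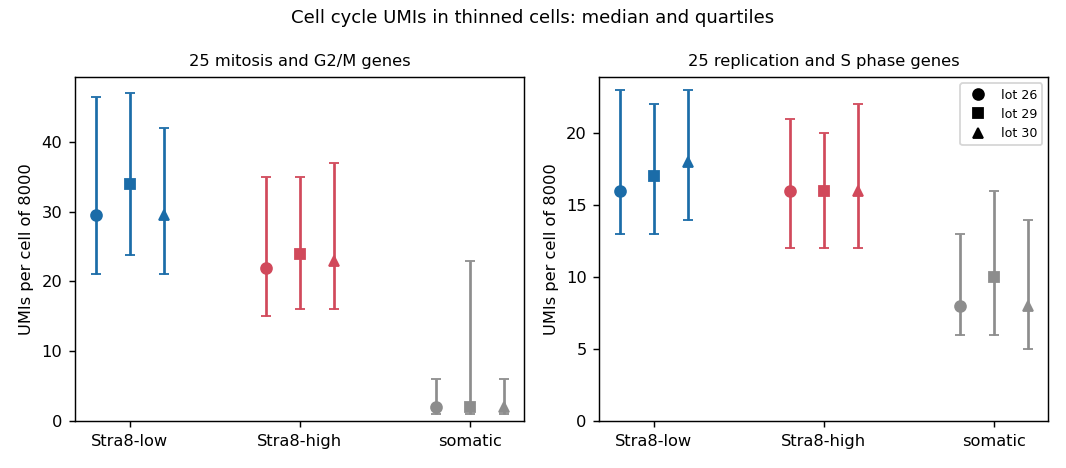
UMIs per cell, after thinning to 8000, from 25 mitosis and G2/M genes (left) and 25 replication and S phase genes (right), as medians (symbols) and quartiles (bars) for each class and lot. The G2/M medians are 29.5 to 34 in Stra8-low, 22 to 24 in Stra8-high and 2 in somatic barcodes, and the S phase medians of the 2 germ cell classes are 16 to 18 and 16.

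Of the replication list 8 genes were higher and 6 lower of 25 tested, with a median of 0.11. Ung, a uracil-DNA glycosylase, differed by 0.79 (SE 0.08) and Tyms, which makes thymidylate, by 0.53 (SE 0.06). Ccne2, a cyclin of the G1/S step, read 10.1, 9.85 and 10.7 CPM in the Stra8-low cells and 29.7, 24.8 and 29.1 CPM in the Stra8-high cells, a log2 difference of -1.45 (SE 0.16, adjusted p = 1.9e-08). Uhrf1, which carries DNMT1 to new DNA, was also lower (-0.98, SE 0.12). The list therefore did not move as 1 group, and without lot 26 only 5 genes were called higher and 3 lower.

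The G1 regulators were split. Of 19 tested D cyclins, CDK inhibitors and Rb family genes, 6 were higher and 5 lower (3 and 4 without lot 26, 2 and 3 without the lot as a block). Ccnd1 read 34.7, 45.4 and 34.6 CPM in the Stra8-low cells and 101, 95.0 and 104 CPM in the Stra8-high cells (log2 difference -1.39, SE 0.10, adjusted p = 8.3e-12). Ccnd3, a cyclin of the same family, read 131, 126 and 120 CPM against 77.0, 68.2 and 89.9 CPM (log2 difference 0.72, SE 0.08, adjusted p = 4.5e-08). The D cyclins thus differed in opposite directions. The CDK inhibitors Cdkn2d (-1.17, SE 0.09) and Cdkn2a (-0.95, SE 0.10) were lower, and Cdk4, their target, was higher (0.66, SE 0.06). Rb1 was lower by 0.41 on the log2 scale (SE 0.10).

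Among 15 tested enzymes and cofactors of DNA methylation, 6 were higher and 3 lower. Tet1, which oxidises methylcytosine, read 98.5, 103 and 111 CPM in the Stra8-low cells and 49.4, 55.6 and 51.0 CPM in the Stra8-high cells, a log2 difference of 1.04 (SE 0.08, adjusted p = 6.9e-11). Dnmt1, the maintenance methyltransferase, differed by -0.17 (SE 0.06, adjusted p = 0.025), and was not called without lot 26 or lot 30 (adjusted p = 0.26 and 0.062). The values of Tet1 did not overlap between the classes.

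Signalling genes have to be read beside the levels of somatic marker genes in the same cells. Markers of somatic cells were higher in the Stra8-low than in the Stra8-high cells. Of 18 such markers 16 were higher, and their summed level was 866, 430 and 821 CPM against 575, 305 and 581 CPM, while somatic barcodes held 3452 to 3773 CPM. By cell type, 10 of 11 tested pre-granulosa markers were higher, 9 of 12 stromal, 5 of 8 epithelial, 5 of 5 red blood cell, 1 of 5 endothelial, 1 of 7 myeloid and 1 of 5 Sertoli markers, and none was lower. The red blood cell count rests on few barcodes, since Hba-x, Hba-a1, Hbb-bt and Hbb-bs lost their calls without the globin-rich barcodes. Scrublet called 17.3%, 16.9% and 20% of the Stra8-low cells doublets, against 12.6%, 6.64% and 15.3% of the Stra8-high cells. The marker counts were smaller without lot 26 (10 of the 18 higher, and 3 of 11 stromal and 1 of 8 epithelial markers). When the 10% of germ cells with the most somatic marker UMIs (the somatic-rich cells) were left out, 3 of the 18 markers were called higher, a fall that the choice of those cells by these markers fixes. Without the cells called doublets 9 of the 18 were higher. Scrublet works from the expression profile, in which these markers can take part, so that choice is not independent of them either. Without the lot as a block 2 of the 18 were higher. In the Stra8-low cells with no Stra8 UMI, 3 of the 18 were higher and 1 lower than in the Stra8-high cells. At a Stra8 threshold of 1 the counts were also 3 and 1. The median log2 difference of the 18 markers was 0.06 and 0.17 in these settings, against 0.59 with all Stra8-low cells. The excess was thus smaller in the cells with the least Stra8. The part of free RNA or joined cells in these differences was not tested.

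For the tested genes of the 7 signalling lists, counts are given by where else the gene was expressed. Of 68 genes that were higher in somatic barcodes than in the Stra8-low cells, 26 were higher in the Stra8-low than in the Stra8-high cells, and 12 of 64 were without the somatic-rich cells or 15 of 64 without called doublets. Of 53 genes not higher in somatic barcodes, 19 were higher, and the same 19 remained among 20 without the somatic-rich cells, as also among 20 without called doublets. Without the lot as a block, 5 and 11 were higher. The counts over all tested genes shifted in the same directions, so nothing here is read as particular to signalling genes. Of those higher in somatic barcodes 983 of 5779 were higher in the Stra8-low cells and 678 of 5393 without the somatic-rich cells, and of the rest 1131 of 5700 and 1333 of 5640.

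The FGF pathway had the largest median of the signalling lists, 0.68, with 10 of 15 tested genes higher and 3 lower (6 and 0 without the lot as a block, 11 and 1 of 14 without the somatic-rich cells). The higher genes were mostly transcriptional targets and feedback inhibitors, but an inhibitor of the pathway was also among the 3 lower genes. Etv5, an ETS factor induced by FGF, read 34.9, 31.2 and 38.9 CPM in the Stra8-low cells and 14.4, 9.75 and 13 CPM in the Stra8-high cells, a log2 difference of 1.47 (SE 0.13, adjusted p = 9.1e-10). Etv4, its relative, read 20.9, 21.9 and 26.1 CPM against 8.61, 7.75 and 8.29 CPM (log2 difference 1.47, SE 0.16, adjusted p = 3.9e-08). The phosphatases Dusp4 and Dusp6, which switch off ERK and related kinases, differed by 1.36 (SE 0.16) and 1.38 (SE 0.20), and the inhibitor Spry4 by 1.52 (SE 0.35) at 2.74 to 7.46 CPM, and by 0.93 (adjusted p = 0.15) without lot 26. The somatic level of Etv5 was 4.38 to 5.62 CPM, under both germ cell classes, and without the somatic-rich cells its log2 difference was 1.61.

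The receptors of the pathway differed in both directions. Fgfr2 was higher (log2 difference 1.01, SE 0.16), and so was Fgfr1 (0.42, SE 0.11, adjusted p = 0.0037), though by 0.10 in thinned cells. Fgfr3, which was higher in Stra8-low cells than in somatic barcodes, was lower than in Stra8-high cells (-0.41, SE 0.15, adjusted p = 0.035), but not without lot 26 or lot 29 (adjusted p = 0.34 and 0.10). The ligand Fgf8 was lower, at 2.59, 4.92 and 1.60 CPM against 6.96, 7.53 and 5.48 CPM (log2 difference -1.18, SE 0.32, adjusted p = 0.0042, and 0.089 without lot 26). The targets named and the ligand Fgf8 thus went in opposite directions in the same cells.

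Of 14 tested genes of Nodal and activin signalling 6 were higher and 1 lower (3 and 0 without the lot as a block). Cfc1, a coreceptor for Nodal, read 11.1, 10.9 and 10.7 CPM against 4.72, 7.53 and 3.19 CPM (log2 difference 1.19, SE 0.25, adjusted p = 3.4e-04). Foxh1, the DNA-binding partner of SMAD2, read 12.2, 9.85 and 6.39 CPM against 5.99, 3.99 and 3.44 CPM (log2 difference 1.08, SE 0.24, adjusted p = 7.8e-04). Both are near absent from somatic barcodes, where Cfc1 was at most 0.220 CPM and Foxh1 at most 0.0210 CPM. Skil, a nuclear inhibitor of SMADs, differed by 0.50 (SE 0.09). Fst, which binds activin and marks pre-granulosa cells, differed by 0.58 (SE 0.11, adjusted p = 1.7e-04) and by 0.49 (adjusted p = 0.033) without called doublets. Fst is one of the markers that chose the somatic-rich cells, so its value without them is not read here. The ligand Nodal and its targets Lefty1 and Lefty2 were too rare to be tested, with 18, 35 and 40 UMIs over all Stra8-low cells.

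The Wnt list had 11 genes higher and 4 lower of 27, but 2 and 2 without the lot as a block and 6 and 4 without the somatic-rich cells. Porcn, which attaches the lipid that Wnt ligands need, read 59.0, 54.2 and 55.4 CPM against 36.9, 37.7 and 35.3 CPM (log2 difference 0.66, SE 0.10, adjusted p = 5.5e-06), with 2.16 to 3.13 CPM in somatic barcodes. Tcf7l1, a repressor of Wnt targets, was higher (1.07, SE 0.14), and Sp5, a direct Wnt target, was lower, at 21.5, 24.6 and 28.8 CPM against 49.0, 51.2 and 50.7 CPM (log2 difference -1.02, SE 0.12, adjusted p = 8.3e-08). Without the somatic-rich cells Sp5 differed by -1.38. The target Axin2 was lower by less (-0.29, SE 0.10, adjusted p = 0.030), was higher in 1 of 3 lots, and differed by -0.05 without lot 26. Ctnnb1, the β-catenin gene, did not differ detectably (0.01, SE 0.06, adjusted p = 0.95). Wnt4, a ligand of pre-granulosa cells and, with Wnt6, one of the markers that chose the somatic-rich cells, differed by 0.49 (SE 0.09), and by 0.035 (adjusted p = 0.87) without called doublets.

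The BMP list was even, with 6 genes higher and 6 lower of 21 and a median of -0.00 (0 and 1 without the lot as a block, 1 and 2 without lot 26). Msx1, a BMP target that promotes meiotic entry, read 30.0, 35.6 and 35.7 CPM in the Stra8-low cells and 79.3, 57.6 and 61.8 CPM in the Stra8-high cells (log2 difference -1.03, SE 0.12, adjusted p = 6.7e-08). Msx2 read 26.6, 23.5 and 26.6 CPM against 27.7, 22.6 and 26.8 CPM, with no detectable difference (0.01, SE 0.12, adjusted p = 0.98). The targets Id1 (0.03, SE 0.05, adjusted p = 0.72) and Id3 (-0.17, SE 0.05, adjusted p = 0.0070, but 0.19 without lot 26 and 0.087 without lot 29) were near even. The 2 Msx genes thus differed in how they followed Stra8.

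Of 13 tested genes of the retinoic acid pathway 2 were higher and 3 lower (1 and 1 without the lot as a block or without lot 29). Over all genes tested 18.4% were higher and 19.2% lower, so these counts are not read as particular to the pathway. The receptors Rara (0.15, SE 0.12, adjusted p = 0.37), Rarb and Rarg were not called, and Rarb and Rarg had 18 and 47 UMIs over all Stra8-low cells. Rbp4, a carrier of retinol, was lower, at 2.33, 3.83 and 1.60 CPM against 11.3 CPM or more in each lot of the Stra8-high cells (log2 difference -2.25, SE 0.28, adjusted p = 3.0e-07). Crabp1, which binds retinoic acid in the cytoplasm, was lower by 0.20 on the log2 scale (SE 0.08, adjusted p = 0.043), and was not called without lot 26 or lot 29 (adjusted p = 0.46 and 0.11). Aldh1a2, which makes retinoic acid in somatic cells, was higher by 0.52 (SE 0.15, not called without lot 29, adjusted p = 0.075) but by 0.17 (adjusted p = 0.57) without the somatic-rich cells.

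Of 19 tested genes of Kit, Cxcl12 and Igf signalling 7 were higher and 1 lower (2 and 0 without the lot as a block, 4 and 1 without lot 30). Kit, the receptor that keeps germ cells alive, read 112, 101 and 121 CPM in the Stra8-low cells and 83.4, 79.3 and 74.1 CPM in the Stra8-high cells (log2 difference 0.52, SE 0.08, adjusted p = 5.9e-06). Cxcr4, the receptor that guides germ cells to the gonad, read 3.62, 3.28 and 5.33 CPM against 2.62, 1.99 and 2.30 CPM, which did not pass (0.78, SE 0.36, adjusted p = 0.096). Kitl, the ligand made by somatic cells, differed by 0.75 (SE 0.11), and by 0.49 (adjusted p = 0.0072) without the somatic-rich cells. Of 12 tested Notch and hedgehog genes 3 were higher and 2 lower (2 and 1 without the lot as a block), beside 18.4% and 19.2% of all genes tested. Hey1, a Notch target, read 17.6, 14.8 and 16.0 CPM against 5.31, 7.97 and 5.23 CPM (log2 difference 1.51, SE 0.20, adjusted p = 1.0e-06). Hes1, another target, differed by 0.69 (SE 0.12), and by 0.15 (adjusted p = 0.52) without the somatic-rich cells.

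**Figure D4:**
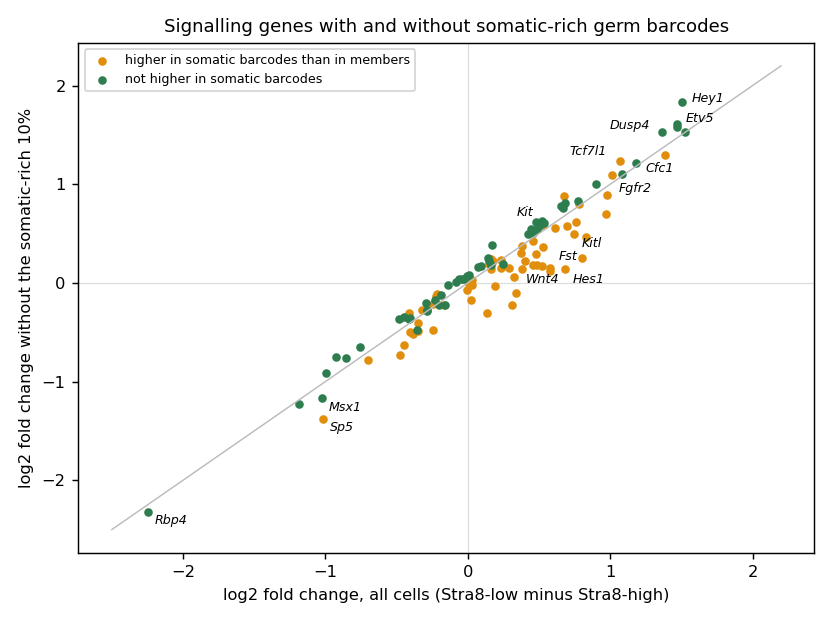
Log2 difference of Stra8-low minus Stra8-high germ cells for the tested signalling genes with all cells (x axis) and without the 10% of germ cells richest in somatic markers (y axis), in orange for genes higher in somatic barcodes than in Stra8-low cells and in green for the rest, with a line of equal values. Etv5 in green (1.47 and 1.61) and Tcf7l1 in orange (1.07 and 1.24) lie above the line and Hes1 in orange (0.69 and 0.15) under it, while Fst, Wnt4 and Wnt6 are among the markers that chose the removed cells, so their fall is part of that choice.

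Immediate early and heat shock genes, which respond to dissociation and thaw, were also higher in the Stra8-low cells, with 13 of 20 higher and none lower (median 0.40), but none was called without the lot as a block, 6 were without the somatic-rich cells (median 0.15), and 4 were higher and 1 lower in cells with no Stra8 UMI (median 0.03). Of the 20 genes 17 read higher in somatic barcodes than in the Stra8-low cells, and the part of somatic message in this list was not tested. Their summed level was 6089, 5896 and 8371 CPM in the Stra8-low cells, 5576, 5547 and 7980 CPM in the Stra8-high cells and 7569, 9255 and 16472 CPM in the somatic barcodes. Lot 30 was the highest in each class. Jun read 284, 221 and 660 CPM against 215, 156 and 498 CPM, a log2 difference of 0.45 (SE 0.05, adjusted p = 2.0e-08).

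The second comparison set the same sums of the Stra8-low cells against the somatic barcodes, so its Stra8-low values are those already given. Of 14877 genes tested, 4756 were higher in the Stra8-low cells (32% of those tested) and 5479 lower (36.8%), with a median log2 difference of -0.14. The depth of the barcodes differed as given above. Of 33 tested meiotic genes 30 were higher than in somatic barcodes and none lower, with a median of 4.60. Rad21l and Mei1, with 0 and 1 UMIs over all Stra8-low cells, were too rare to be tested against the soma. Of 23 pluripotency genes 19 were higher and 4 lower (median 6.32), led by Dppa5a (8.76, SE 0.14) and Pou5f1 (8.46, SE 0.39, with 0.0643 to 0.0944 CPM in somatic barcodes). Of 23 genome defence genes 22 were higher and 1, Taf7l, was lower.

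The Stra8-low cells also held more message of mitotic genes than the soma. The list of D cyclins, CDK inhibitors and the Rb family was split, with 7 of 20 higher and 10 lower. Over all genes tested 32% were higher and 36.8% lower, so nothing is read as particular to this list. Of the 25 G2/M genes 23 were higher and none lower (median 1.19), and Ccnb1 differed by 2.04 (SE 0.09). The D cyclin Ccnd2 was lower, at 70.3, 30.1 and 55.4 CPM against 315, 254 and 302 CPM (log2 difference -2.41, SE 0.10, adjusted p = 1.3e-22), and so was the inhibitor Cdkn1c (-2.31, SE 0.09). Cdkn2a was higher (7.01, SE 0.31). Of the signalling receptors, Kit (3.72, SE 0.11) was higher and Fgfr2 (-1.44, SE 0.11) lower. Ligands and enzymes of the somatic niche were lower, among them Kitl (-2.58, SE 0.10), Wnt4 (-2.38, SE 0.11) and Aldh1a2 (-2.5, SE 0.11).

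Some Stra8-low barcodes carried message of the Y-linked genes Ddx3y, Eif2s3y, Kdm5d or Uty. These were 8 of 139 in lot 26 (5.76%, exact 95% interval 2.52 to 11), 8 of 77 in lot 29 (10.4%, 4.59 to 19.5) and 1 of 65 in lot 30 (1.54%, 0.0389 to 8.28). In the Stra8-high cells the shares were 1.31% and 1.33% in lots 26 and 29 and 0 of 300 in lot 30 (exact upper limit 1.22%), and in somatic barcodes they were 3.67%, 10.9% and 0.873%. At a common depth of 8000 UMIs the Stra8-low shares were 2.90%, 5.26% and 0 of 64 (exact upper limit 5.60%), and the Stra8-high shares 0.760%, 0.450% and 0 of 297. Of the 10 genes of a male germ cell list, 3 were tested between the germ cell classes, with 2 lower in the Stra8-low cells and none higher. This direction was not kept in every subset, with 3 higher and 2 lower of 5 tested without lot 30, 2 and 2 of 5 without lot 29, and 1 and 1 of 3 without called doublets. The order of the lots was the same in the Stra8-low cells and the somatic barcodes. With 3 lots in pairs an exact 2-sided permutation test cannot go below p = 0.25, and none was run. Without the cells that held a Y-linked UMI, 2048 genes were higher and 1966 lower in the Stra8-low cells.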

How the data were processed

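The 3 lots of fetal ovarian somatic cells were profiled with the 10X Genomics 3′ v3 kit. The authors deposited raw UMI counts per gene and barcode, made with UMI-tools, STAR 2.7 and featureCounts 2.0.1 on GRCm38 from uniquely mapped reads, with no normalization, and the annotation release and strand setting are not given in the sources used here. Overlapping genes could therefore share reads. A gene was listed in at least 1 table for 18738 genes and in every table for 17460. Only the rule, the barcode filter and the summing were applied to them here.

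The cells, gene lists and tests were chosen with earlier results of these data known. UMIs were summed per class and lot and tested with edgeR 4.0.16 in R 4.3.3 (TMM, filterByExpr, quasi-likelihood test, 2-sided, with p-values adjusted by the Benjamini-Hochberg method over every gene tested and called under 0.05). The sums hold 1828249 UMIs or more. The lot was a block because both sums of a lot come from 1 pool of cells, which pairs them by construction. Nothing in the labels separates animals within a lot. With the lot as a block, p-values weigh the difference between the classes against its variation from lot to lot. An SE is the log2 difference divided by the square root of F. On simulated counts of 11299 genes for the germ cell comparison, 89.7% of 97 genes changed by 1 on the log2 scale were recovered. Of 100 genes changed by 2, 100% were recovered, and 3.61% of all calls were false. For the somatic comparison, with 14675 genes, these shares were 69.7% of 99 and 80.6% of 98, and 3.27% of all calls were false. The simulation picked 200 genes to change and gave the lots no difference in level. Its shares are therefore not the error rates on the real counts.

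Genes named are Stra8, Dazl, Ddx4 and the markers, in each list up to 4 called genes with the largest folds (20 CPM or more in a class) and genes that define the pathway, and the 10 largest folds in each direction among genes called, at 20 CPM or more and changed alike in 3 of 3 lots. Others were chosen after their values were seen. These are genes under 20 CPM (Cfc1, Dusp6, Esrrb, Fgf8, Foxh1, Fut4, Gm4969, Hey1, Rbp4, Spo11, Spry4, Rad21l, Mei1, Nodal, Lefty1 and Lefty2) and the further examples within the lists. Older gene symbols were matched through RefSeq synonyms. Positions are from GENCODE M21 and promoter windows from RefSeq. Doublets were called by Scrublet in scanpy 1.11.5 (expected rate 8%) and kept in the main results. For shares of cells, each cell was thinned to 8000 UMIs and shallower cells were left out (1 Stra8-low cell per lot, and 7, 4 and 3 Stra8-high cells). Alternatives were DESeq2 1.42.0, other normalization, no low-count filter, no block, each lot left out, doublets, somatic-rich barcodes or barcodes with Y-linked UMIs left out, other thresholds for Stra8, Dazl, Ddx4 and barcodes, and thinned cells. Leaving out globin-rich barcodes was added after seeing the data.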

Additional observations from a re-analysis of the deposited data

How the results depend on the processing

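Between the germ cell classes, 2114 genes were higher and 2205 lower in Stra8-low cells. Without the replicate block, which pairs the 2 sums of a lot, there were 863 and 1045, with DESeq2 1003 and 828, and in thinned cells 1136 and 1064. Leaving out 1 lot at a time gave 1407 to 1863 higher and 1413 to 1965 lower, with the lowest values without lot 26. Under the other alternatives both counts stayed within 1.5 times. Against somatic barcodes, leaving out a lot gave 3990 to 4400 higher and 4778 to 5153 lower, and no alternative moved a count beyond 1.5 times.

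The share of germ cells that were Stra8-low was 14.4% at a Stra8 threshold of 1 per 10000 and 36.9% at 4, since the threshold cuts a continuous range. The share of kept barcodes was 1.66% at 4 and 1.49% in thinned cells, where shallow barcodes are left out of the denominator. Leaving out a lot gave 0.754% to 1.17% of kept barcodes, 19.2% to 23.1% of germ cells and 3.65% to 8.07% of Stra8-low cells with a Y-linked UMI.

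For the 115 differences of named genes, 1804 of 1914 values under alternatives kept their side of the threshold. Among these, a gene not called in either setting could change sign, as Id1 did without called doublets (0.03 to -0.04). A further 103 kept the direction and lost the call, and 1 gained it. The 6 others changed sign, with a call in the main or the alternative setting. They were Hba-x (-0.61) and Hbb-bt (-0.37) at a Stra8 threshold of 1 and Id1 (-0.13) at a threshold of 4. The rest were Wnt4 at a threshold of 1 (-0.10), in cells with no Stra8 UMI (-0.002) and under the stricter germ cell rule (-0.033). The cause was not tested for Id1 and Wnt4. With the 4 globin-rich barcodes left out, an alternative added after seeing the data, the calls of Hba-x, Hba-a1, Hbb-bt and Hbb-bs were lost. Depth limits genes under about 5 CPM, such as the Nodal ligand, which the low-count filter removed.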

Other observations

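The Stra8-low cells with a Y-linked UMI differed in a few rare transcripts of Nodal signalling, which were looked at after the values were seen and were not tested. Lefty1, an inhibitor of Nodal, had 27 UMIs in 7 of these 17 cells and 8 UMIs in 8 of the other 264, or 55.3 against 1.13 CPM over all lots. Lefty2, its paralog, had 36 UMIs in 6 cells against 4 in 4, or 73.7 against 0.565 CPM. Nodal had 4 and 14 UMIs (8.19 against 1.98 CPM) and Nanos2, a repressor of meiosis in male germ cells, 2 and 1. In the 17 cells Nanog read 20.5 CPM and Sycp3 79.8 CPM, against 25 and 93.6 CPM in the others. Sox9, a Sertoli cell factor, read 12.3 against 3.53 CPM, and Amh, another, had 0 UMIs in the 17 cells and 14 in the others. Pecam1 read 61.4 against 95.0 CPM. The 17 cells (8, 8 and 1 in lots 26, 29 and 30) were pooled, so these values have no replicates. Among all Stra8-low cells, 1 barcode held 10 of the 24 Lefty1 UMIs of lot 26. In lot 29 1 barcode held 8 of the 16 Lefty2 UMIs, and lot 30 had 1 Lefty2 UMI. A Y-linked UMI can be missed in a cell or come from free RNA, so the 2 sets are not clean. The part of Sertoli message in these cells was not tested.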
